A study of Homo sapiens with 11 samples.

Results

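The respiratory chain is built from 2 genomes, and its transcripts were examined here in HEK293T cells treated with A8, a compound known here only by its code name. Members were chosen by gene symbol from the count table: the 13 protein-coding genes of mitochondrial DNA (mtDNA) and the nuclear genes whose symbols name structural subunits of complexes I to V. A mean of at least 10 counts over the libraries was also asked for. The rule gave 88 of the 27671 genes in the table, 13 in mtDNA and 75 in the nucleus, and the member with the fewest reads, ATP5L2, had a mean of 143 counts, so the minimum removed none. Of the mtDNA genes 7 encode subunits of complex I, 1 of complex III, 3 of complex IV and 2 of complex V. The nuclear genes numbered 37 for complex I, 4 for complex II, 8 for complex III, 10 for complex IV and 16 for complex V. These numbers follow the symbols, so that NDUFA4, known to be a subunit of cytochrome c oxidase, is counted with complex I. No measured difference between treatments entered the rule, but the members were chosen with earlier results of these data known.

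HEK293T is an established cell line derived from embryonic kidney. Cells received vehicle (DMSO, n = 3 libraries), ISRIB with DMSO (n = 2), 10 µM A8 (n = 3) or 10 µM A8 with ISRIB (n = 3), and ISRIB is an inhibitor of the integrated stress response that works through eIF2B. Treatment lasted 8 h by the titles but 4 h by the treatment protocol, which remains unsettled. The series title connects A8 with RIG-I and that stress response. All cells are of 1 line, the submitters left out an ISRIB replicate of poor quality, and the ISRIB libraries are called a and b because their column numbers differ from the titles. Totals were 34072107 to 35318111 counts per library. All 8 markers listed for HEK293T were above 1 CPM (counts relative to each library's TMM-scaled total), and 0 of 14 markers of other cell types were.

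Mitochondrial DNA is transcribed from both strands into long precursors that are cut into mRNAs, rRNAs and tRNAs, so the levels of its mRNAs are not independent of each other. It encodes the hydrophobic core subunits: the ND proteins of complex I, which takes electrons from NADH, cytochrome b of complex III, the catalytic core of cytochrome c oxidase (complex IV), and a pair of membrane subunits of ATP synthase (complex V). Complex II, which oxidises succinate, is encoded wholly in the nucleus. COX1 and COX2 are here the cytochrome oxidase genes and not the cyclooxygenases.

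Several annotated ends of mitochondrial genes are shown because the libraries were made by capture of poly(A) tails. Of the 13 genes, 6 as annotated end within the stop codon, which the tail completes. These 6 genes are ND1, ND2, ND3, ND4, CYTB and COX3. ATP6 is annotated with a whole stop codon, but its last base is also the first of COX3 (1 shared base), so its mRNA cut before COX3 would end within it too. The last 30 bases of 5 genes as annotated in GENCODE version 29 follow, 5′ to 3′, with the encoded part of the stop codon in capitals. The annotation ends with the coding part, and where the mRNAs themselves end was not measured.
ND1: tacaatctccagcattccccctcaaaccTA
CYTB: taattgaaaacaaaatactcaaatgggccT
ND5: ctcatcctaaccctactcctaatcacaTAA
ND6: attgtaattgagattgctcgggggaatAGG
COX1: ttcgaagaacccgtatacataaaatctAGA
ND6 is read from the other strand than the rest, and its mRNA is known to lack a stable poly(A) tail. ATP8 and ATP6 share an mRNA and 46 bases, 22.2% of the length of ATP8, which limits how far their counts can be told apart. Shared bases are given with the ATP6 start codon and the ATP8 stop codon in capitals.
ATP8 and ATP6: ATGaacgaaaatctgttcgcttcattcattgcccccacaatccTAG
ND4L and ND4 likewise share 7 bases.

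Nuclear subunit genes are under no common precursor, but many are known targets of NRF1, a transcription factor of mitochondrial biogenesis. Promoters (250 bases before to 50 after the start, RefSeq, GRCh38.p14) were matched for 61 of the 75. The NRF1 motif GCGCANGCG, on either strand and with overlapping matches counted as 1, was in 20 of the 61 (32.8%) and in 8.05% of all 27305 promoters. An ETS motif, CCGGAAGT, was in 9 (14.8%, against 4.44%), and the YY1 motif AAGATGGCG was in 8 (13.1%, against 1.85%), both likewise searched on either strand. The element TGATGCAA, of the kind ATF4 binds, was in 0 of the 61 and in 0.923% of all promoters. A match is only a run of letters. The promoters of SDHA, the flavoprotein of complex II, with 4 NRF1 matches, and of UQCR11, a small subunit of complex III, with 2, are given with the matches in capitals. The replicate SD of log2 CPM was 0.049 for SDHA and 0.163 for UQCR11.
SDHA (chr5:218070-218369, plus strand): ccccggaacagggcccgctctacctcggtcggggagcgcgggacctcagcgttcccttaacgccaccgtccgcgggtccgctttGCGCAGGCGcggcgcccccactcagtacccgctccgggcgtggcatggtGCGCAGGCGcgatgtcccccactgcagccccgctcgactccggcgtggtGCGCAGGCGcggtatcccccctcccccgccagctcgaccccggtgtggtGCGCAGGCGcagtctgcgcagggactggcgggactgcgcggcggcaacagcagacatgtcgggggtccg
UQCR11 (chr19:1605413-1605712, minus strand): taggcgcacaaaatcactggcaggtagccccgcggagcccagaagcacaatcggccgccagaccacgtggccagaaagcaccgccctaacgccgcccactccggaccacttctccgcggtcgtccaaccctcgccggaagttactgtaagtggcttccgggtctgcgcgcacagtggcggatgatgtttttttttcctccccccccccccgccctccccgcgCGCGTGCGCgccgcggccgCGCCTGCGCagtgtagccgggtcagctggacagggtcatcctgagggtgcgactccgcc

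The 2 genomes differed most in level. In vehicle libraries the median mtDNA gene had 5666 CPM per kb of transcript and the median nuclear member 118.4 CPM per kb, a ratio of 47.9. The same ratio was 51.9 in complex I, 38.4 in complex III, 72.1 in complex IV and 64.5 in complex V. COX2, which holds the copper centre that accepts electrons from cytochrome c, had the highest level (18710 ± 1990 CPM per kb, SD, n = 3), followed by COX3 (16010 ± 1120), whose range met that of COX2. ND6 (1415 ± 447) and ND5 (1557 ± 235), both of the proton-pumping arm of complex I, were the lowest of the 13, and their ranges overlapped. The highest nuclear member, ATP5J2, a membrane subunit of ATP synthase, had 857.9 ± 36.6 CPM per kb, below ND6. The catalytic beta subunit ATP5B had 731.5 ± 27.0 and NDUFA11, an accessory subunit of complex I, 720.7 ± 89.5 CPM per kb. Lengths were those of the longest principal transcript, so nuclear levels of genes with a long 3′ end, such as NDUFS1, are lower on this scale than a shorter isoform would give.

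**Figure D1:**
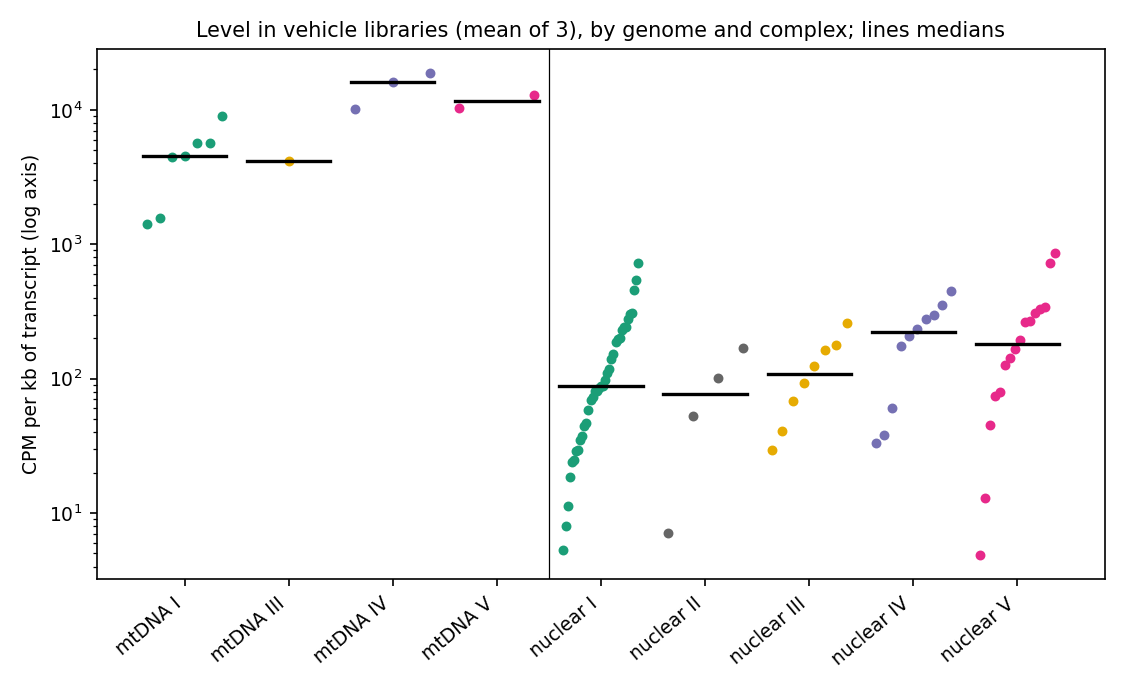
Level of each of the 88 genes in the vehicle libraries (mean of 3, CPM per kb of transcript, log axis) by genome and complex, with 1 point per gene and black lines at the medians. Every mtDNA gene lies above every nuclear gene, the lowest being ND6 at 1415 and the highest nuclear gene ATP5J2 at 857.9 CPM per kb.

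The first comparison asked what A8 did to these transcripts relative to vehicle. No member passed the test: 0 of 13 mtDNA and 0 of 75 nuclear genes had an adjusted p under 0.05 in edgeR's quasi-likelihood test, where 0.141% of all 15591 genes tested were called. The mtDNA genes nevertheless all had log2 fold changes above 0, also with any 1 library left out, from 0.13 (ND2) to 0.61 (ND6) with a median of 0.38, while 51.8% of all genes were above 0. The nuclear members had a median of 0.01, with 43 above 0 and 32 below, and the median of all genes was 0.01. That nuclear split rested on single libraries: 17 of the 75 were above 0 without vehicle 3 (median -0.04) and 62 without vehicle 1 (median 0.06), and the median was also below 0 without A8 1 (-0.01, 32 above 0) or A8 3 (-0.004, 37 above 0). At an unadjusted p under 0.05, 9 of the 13 mtDNA genes were higher in edgeR, against 4.9% of all genes, and 2 of the 75 nuclear genes. The DESeq2 Wald test also called 0 of 88 members, where it called 0.75% of all genes. It had 5 of 13 mtDNA genes at an unadjusted p under 0.05. The authors' deposited DESeq2 table lists none as called, its lowest adjusted p for a member being 0.711, for the nuclear gene NDUFS1. For the mtDNA genes that table's lowest unadjusted p was 0.135 (COX2), and its SE for ND5 was 0.38.

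Of the complex I genes, ND5 had 2577, 2576 and 3312 CPM in the vehicle libraries and 3793, 3912 and 4278 CPM in the A8 libraries. Each A8 library was above each vehicle library, and edgeR put the difference at 0.50 on the log2 scale (SE 0.14, adjusted p = 0.207). ND6 had 612.0, 602.8 and 1013 CPM with vehicle and 1083, 1242 and 1078 CPM with A8. Vehicle 3 came close to the A8 libraries without overlapping them, and the log2 fold change was 0.61 (SE 0.27, adjusted p = 0.448 in edgeR). ND4, the neighbour of ND5 on the mitochondrial genome, had 7368, 6305 and 9610 CPM against 11121, 8619 and 11896 CPM. Its vehicle 3 library lay above A8 2, and the log2 fold change was 0.44 (SE 0.20, adjusted p = 0.461 in edgeR). ND2 and ND3 had the smallest values of the complex, 0.13 (SE 0.16) and 0.14 (SE 0.17).

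CYTB, which carries the b-type haems of complex III, had 4807, 3981 and 5407 CPM with vehicle and 6521, 6294 and 7519 CPM with A8. The groups did not overlap, and the log2 fold change was 0.52 (SE 0.16, adjusted p = 0.256 in edgeR). COX1, the subunit of complex IV where oxygen is reduced, had 13610, 13688 and 19676 CPM against 21974, 17239 and 22983 CPM. Vehicle 3 stood above A8 2, and the log2 fold change was 0.40 (SE 0.14, adjusted p = 0.324 in edgeR). COX3 had 12494, 11700 and 13450 CPM against 14542, 13559 and 14394 CPM, a difference of only 0.17 (SE 0.08) between groups that did not overlap. ATP6, which forms the proton channel of ATP synthase with a ring of nuclear-encoded c subunits, had 8718, 7448 and 10242 CPM against 11921, 10365 and 12111 CPM. Its log2 fold change was 0.38 (SE 0.13, adjusted p = 0.33 in edgeR). In all, 5 of 13 mtDNA genes (ND5, ND6, CYTB, COX3 and ATP6) had every A8 library above every vehicle library, as had 8.47% of all genes and 2 of the 75 nuclear members.

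The 13 genes moved together from library to library. Vehicle 3 was the highest of its group for 13 of 13 genes and vehicle 2 the lowest for 12, while A8 2 was the lowest of its group for 11. For 12 of 13 genes all A8 libraries were above vehicle 1 and 2, so that vehicle 3 set most of the overlap. The spread between replicates (pooled SD of log2 CPM) had a median of 0.277 over the mtDNA genes, against 0.129 over the nuclear members and 0.141 over all genes tested. The mtDNA genes took 8.37 ± 1.22% of counts with vehicle and 10.4 ± 0.942% with A8 (SD, n = 3 each), with ranges of 7.40 to 9.74% and 9.31 to 11.1%.

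**Figure D2:**
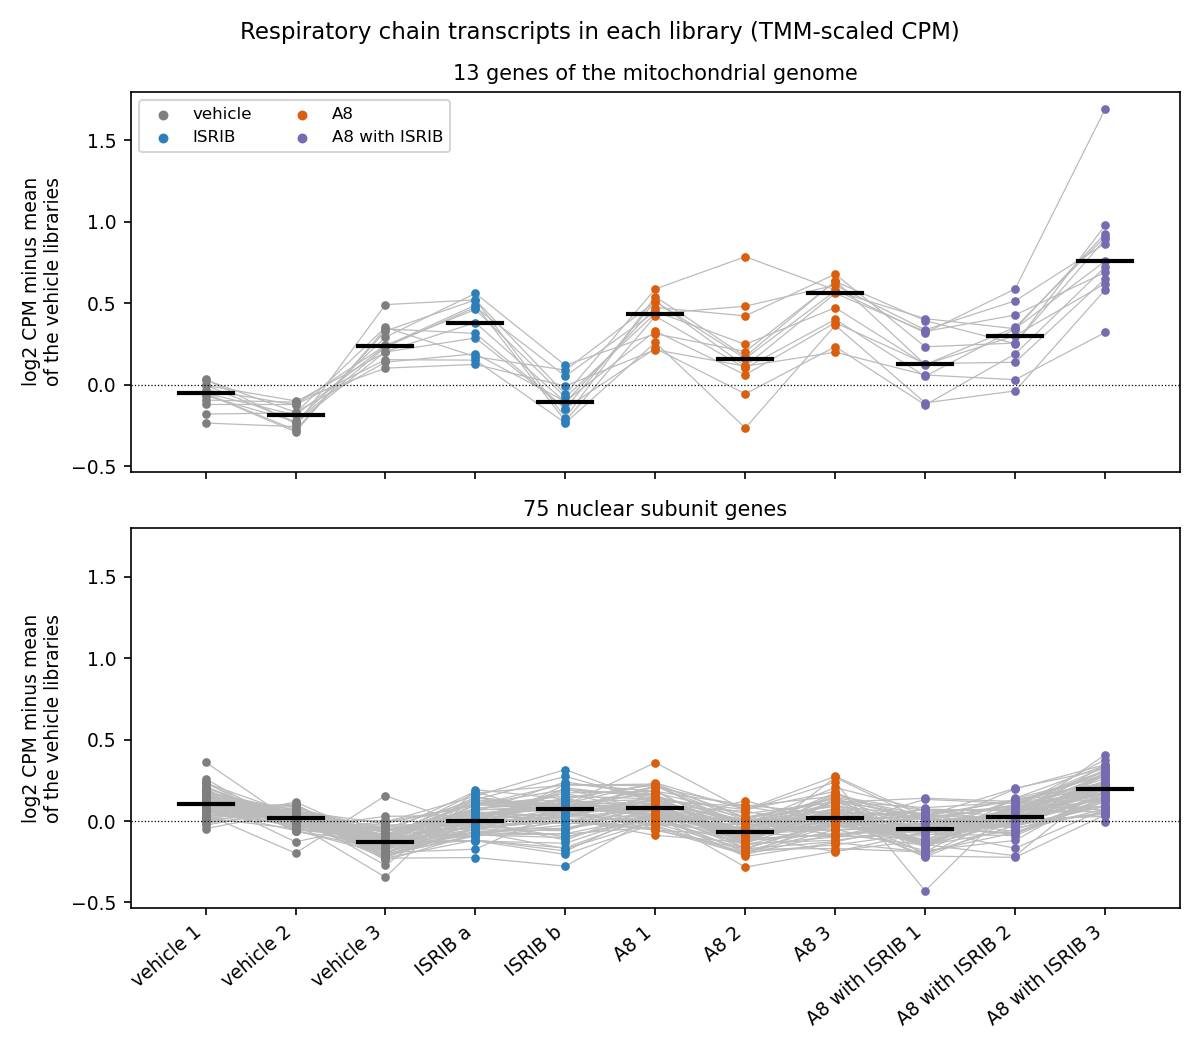
Each member's log2 CPM minus its mean in the vehicle libraries, for the 13 mtDNA genes (top) and the 75 nuclear genes (bottom) in the 11 libraries. Points are genes coloured by group, thin lines join the points of 1 gene, and black bars are medians: mtDNA medians ran from -0.19 in vehicle 2 to 0.76 in A8 with ISRIB 3, nuclear ones from -0.13 to 0.19.

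The call depended on the filter on low counts. With every gene of at least 1 count in the same edgeR fit (21245 genes), 8 of 13 mtDNA genes were called higher in A8 against vehicle (ND4, ND4L, ND5, ND6, CYTB, COX1, ATP6 and ATP8), where 0.49% of all genes were called, and 0 of 75 nuclear genes. The fold changes did not move, but the prior degrees of freedom, which set how far each gene's spread is drawn to the common trend, were 82.4 in place of 9.7, and the SE of ND5 fell from 0.138 to 0.085. Leaving out vehicle 3 gave a median difference between the genomes of 0.582 in place of 0.367. At an unadjusted p under 0.05, the 9 mtDNA genes of the filtered edgeR fit became 2 without vehicle 2. They were 3 without vehicle 1 or A8 3, and 11 without vehicle 3 or A8 with ISRIB 3.

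By complex, the mtDNA median less the nuclear median of the log2 fold change was taken in A8 against vehicle. It was 0.38 in complex I, 0.54 in complex III (CYTB alone), 0.22 in complex IV and 0.36 in complex V (ATP6 and ATP8). In A8 with ISRIB against ISRIB alone the order differed, with 0.30, 0.29, 0.23 and 0.14 for complexes I, III, IV and V. No test was made of these medians, whose mtDNA genes share their libraries and precursors. Along the mitochondrial genome the 4 highest log2 fold changes were those of ND4, ND5, ND6 and CYTB, the last 4 of the 13 genes in order. These 4 ranked 7, 4, 1 and 5 when A8 with ISRIB was set against ISRIB alone, where no library is shared with the first comparison.

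**Figure D3:**
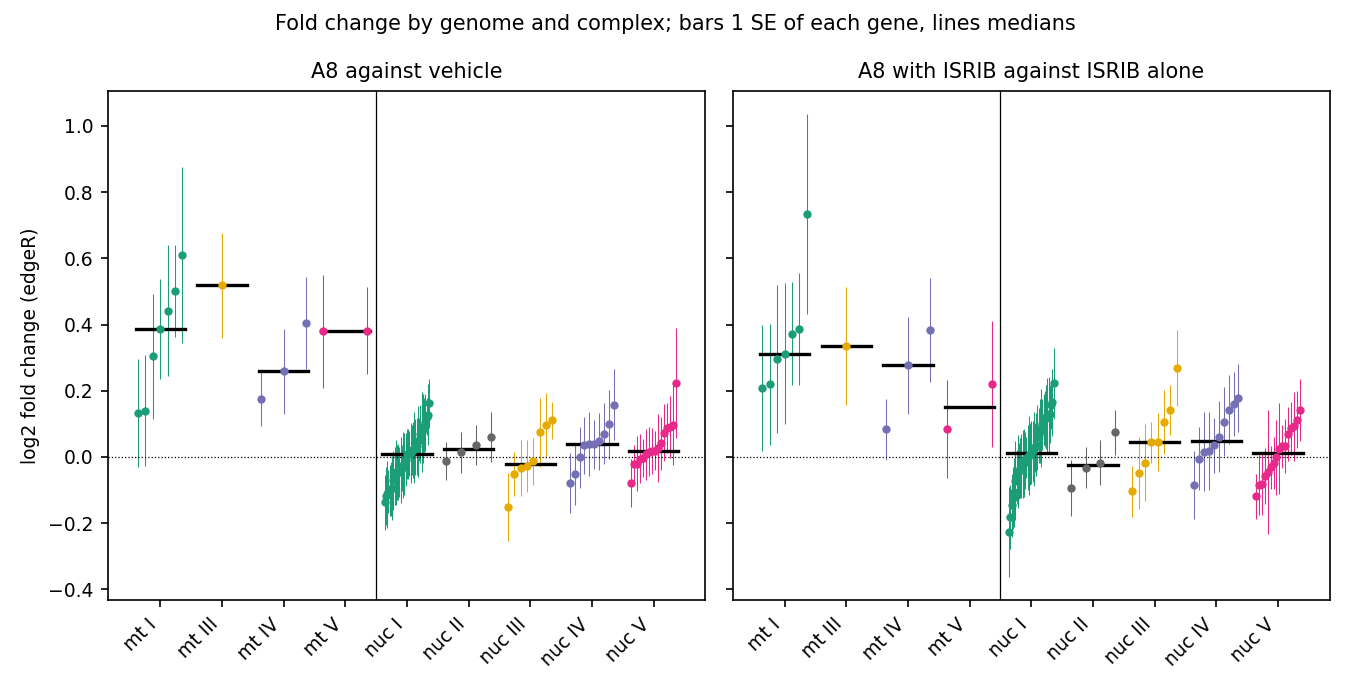
Log2 fold change of each member with its SE, by genome (mt, mtDNA; nuc, nuclear) and complex, for A8 against vehicle (left) and A8 with ISRIB against ISRIB alone (right), with black lines at the medians. All 13 mtDNA genes lie above 0 in both panels (in the right panel 8 of 13 without A8 with ISRIB 3 and 10 of 13 without ISRIB b) while the nuclear genes lie on both sides, and no member passed the test.

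The second question was whether the pattern was also there under ISRIB. In A8 with ISRIB against ISRIB alone 0 of 88 members were called in edgeR (0.0128% of all genes), and 0 with DESeq2, which called 0.391% of all genes. The mtDNA genes again had log2 fold changes above 0 for 13 of 13, from 0.08 (COX3) to 0.73 (ND6), with a median of 0.30 against 0.02 for the nuclear members; 50.5% of all genes were above 0. Only 8 of 13 were above 0 without A8 with ISRIB 3 (median 0.04), and 10 of 13 without ISRIB b (median 0.03). At an unadjusted p under 0.05, 4 of 13 were higher in edgeR (ND4L, ND5, ND6 and COX1), against 4.75% of all genes. In the DESeq2 Wald test 0 of 13 had such a p. COX1 had 17375 and 16416 CPM with ISRIB and 20436, 19573 and 26077 CPM with both agents. Its groups did not overlap, as those of ND4L (2 of 13, against 12.8% of all genes), and the edgeR estimate was 0.38 (SE 0.16, adjusted p = 0.552). ND5 had 3858 and 2655 CPM against 3539, 4003 and 5107 CPM, where ISRIB a lay inside the range of the other group (0.37, SE 0.16).

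These values rested on single libraries. ISRIB a was above ISRIB b for 13 of 13 mtDNA genes, for example 7543 against 4607 CPM for ND1, and A8 with ISRIB 3 was the highest of all 11 libraries for 13 of 13, with 10228 CPM for ND1 and 2326 CPM for ND6. A8 with ISRIB 3 also had 74 of the 75 nuclear members above their 11-library mean and the lowest TMM factor (0.938, others 0.985 to 1.02). The difference between the genomes' medians was 0.28 in all libraries, 0.08 without A8 with ISRIB 3, -0.02 without ISRIB b and 0.44 without ISRIB a. The 4 genes at an unadjusted p under 0.05 became 0 without A8 with ISRIB 3, 0 without ISRIB b, 7 without ISRIB a and 8 without A8 with ISRIB 1. Without the low-count filter 1 member, ND6, was called in this comparison, where 0.193% of all genes were.

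Against vehicle, A8 with ISRIB gave 0 of 88 calls in edgeR (0.0192% of all genes) and 0 in DESeq2 (0.167%). The mtDNA median was 0.48 and the nuclear median 0.06. In edgeR 10 of 13 mtDNA genes had an unadjusted p under 0.05, against 3.66% of all genes on the higher side. The DESeq2 Wald test had 6 of 13. This comparison shares its vehicle libraries with the first. ND5 (0.58, SE 0.14, adjusted p = 0.348 in edgeR) and CYTB (0.48, SE 0.16) did not overlap with vehicle, as did not 5.79% of all genes on the higher side, whereas ND6 (0.95, SE 0.27) overlapped. The difference between the medians, 0.42, was 0.24 without A8 with ISRIB 3. The 10 genes at an unadjusted p became 5 without that library, 4 without vehicle 2 and 12 without vehicle 3. With no filter on low counts 9 of 13 mtDNA genes were called, where 0.188% of all genes were.

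ISRIB by itself and its effect on top of A8 gave smaller values. ISRIB alone against vehicle had 0 of 88 calls in edgeR (0% of all genes) and 0 of 13 mtDNA genes at an unadjusted p under 0.05 (9.58% of all genes). That 0 became 4 without vehicle 3, 3 without ISRIB b and 2 without A8 with ISRIB 3. The mtDNA median was 0.15, and the difference between the genomes turned from 0.09 to -0.17 without ISRIB a and was 0.37 without ISRIB b. It was 0.30 without vehicle 3, 0.02 without vehicle 1 and -0.02 without vehicle 2. A8 with ISRIB against A8 had 0 of 88 calls (0.18% of all genes), again with 0 of 13 unadjusted (5.91%), an mtDNA median of 0.08 and a nuclear median of 0.04. Its mtDNA median was -0.13 without A8 with ISRIB 3, where 0 of 13 genes were above 0 and 1 had an unadjusted p under 0.05, and -0.03 without A8 2. It was 0.13 without A8 with ISRIB 2, 0.15 without A8 3 and 0.16 without A8 with ISRIB 1, where 2 genes had such a p. In the interaction, which asks whether the A8 effect differed with ISRIB, 0 of 88 members were called (0.0257% of all genes). DESeq2 likewise called 0 members, where it called 0.218% of all genes for ISRIB alone against vehicle, 0.314% for A8 with ISRIB against A8 and 0.276% for the interaction. The interaction values of the mtDNA genes ran from -0.30 (ATP6, 95% interval -0.71 to 0.12) to 0.12 (ND6, -0.72 to 0.96), intervals wide enough to hold both no difference and one as large as the A8 effect.

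An average of the A8 effect with and without ISRIB, a contrast added after the data had been seen, called 0 of 88 members (0.237% of all genes) and had 10 of 13 mtDNA genes at an unadjusted p under 0.05 in edgeR (5.43% of all genes on the higher side). Its lowest adjusted p was that of ND5, 0.115, for an estimate of 0.44 (SE 0.10). Without vehicle 3, COX1 was called in it (0.49, adjusted p = 0.0228), where 0.155% of all genes were. With no filter on low counts 10 mtDNA genes were called, against 0.65% of all genes. The 10 at an unadjusted p were 7 in the DESeq2 Wald test. In edgeR they became 6 without vehicle 2, A8 3 or A8 with ISRIB 3. They became 11 without vehicle 3 or A8 with ISRIB 2, and 12 without A8 2 or A8 with ISRIB 1. The mtDNA median, 0.31, was 0.20 without ISRIB b. The nuclear members had a median of 0.02 and 0 of 75 below the unadjusted threshold.

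Set against the mitochondrial rRNAs of the same library, the mRNAs separated the libraries with A8 from those without. This scale was also chosen after the data had been seen. RNR1 and RNR2, the rRNAs of the mitochondrial ribosome, had log2 fold changes of 0.03 (SE 0.11) and 0.17 (SE 0.13) in A8 against vehicle, and neither was called. The counts of the 13 mRNA genes over those of both rRNAs were 6.03, 6.67 and 6.70 with vehicle, 6.09 and 6.50 with ISRIB, 7.405, 7.15 and 7.45 with A8, and 7.57, 7.41 and 8.095 with A8 and ISRIB. All 6 libraries with A8 were thus above all 5 without it, and no test was made because the scale was picked on these values. Vehicle 3, which stood out in CPM, was level with vehicle 2 on this scale, while A8 with ISRIB 3 was still the highest.

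Gene by gene, 5 of 13 mRNAs (ND4, ND5, ND6, CYTB and ATP6) had a higher ratio to rRNA in each of the 6 libraries with A8 than in each of the 5 without, as did 0.0706% of all genes. On the CPM scale 0 of 13 did so, against 0.622% of all genes. Between A8 and vehicle alone the ratio separated 7 of 13 genes, against 1.06% of all genes. On the ratio scale the shares of all genes are not a like background. Division by rRNA adds the rRNA differences between libraries to nuclear genes, while mtDNA mRNAs partly share these differences. The 0.0706% stands for 11 genes, with the 5 named mRNAs among them. CYTB counts over rRNA counts were 0.358 to 0.376 in the 5 libraries without A8 and 0.428 to 0.524 in the 6 with it. ND6 and ND4 separated only narrowly. The nearest libraries were vehicle 3 (0.0705) and A8 3 (0.0712) for ND6, and vehicle 3 (0.668) and A8 2 (0.675) for ND4. COX3, at 0.821 to 1.07 and 0.941 to 1.07, and ND3, at 0.209 to 0.264 and 0.204 to 0.282, overlapped over most of their range. Poly(A) capture retains rRNA only in part (1.11 to 1.65% of counts), and whether its yield differed between libraries was not tested. The 22 mitochondrial tRNA symbols had a median log2 fold change of 0.04 in A8 against vehicle, with 0 called (0.141% of all genes) and 1 at an unadjusted p under 0.05 in edgeR (4.9% of all genes on the higher and 5.34% on the lower side).

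**Figure D4:**
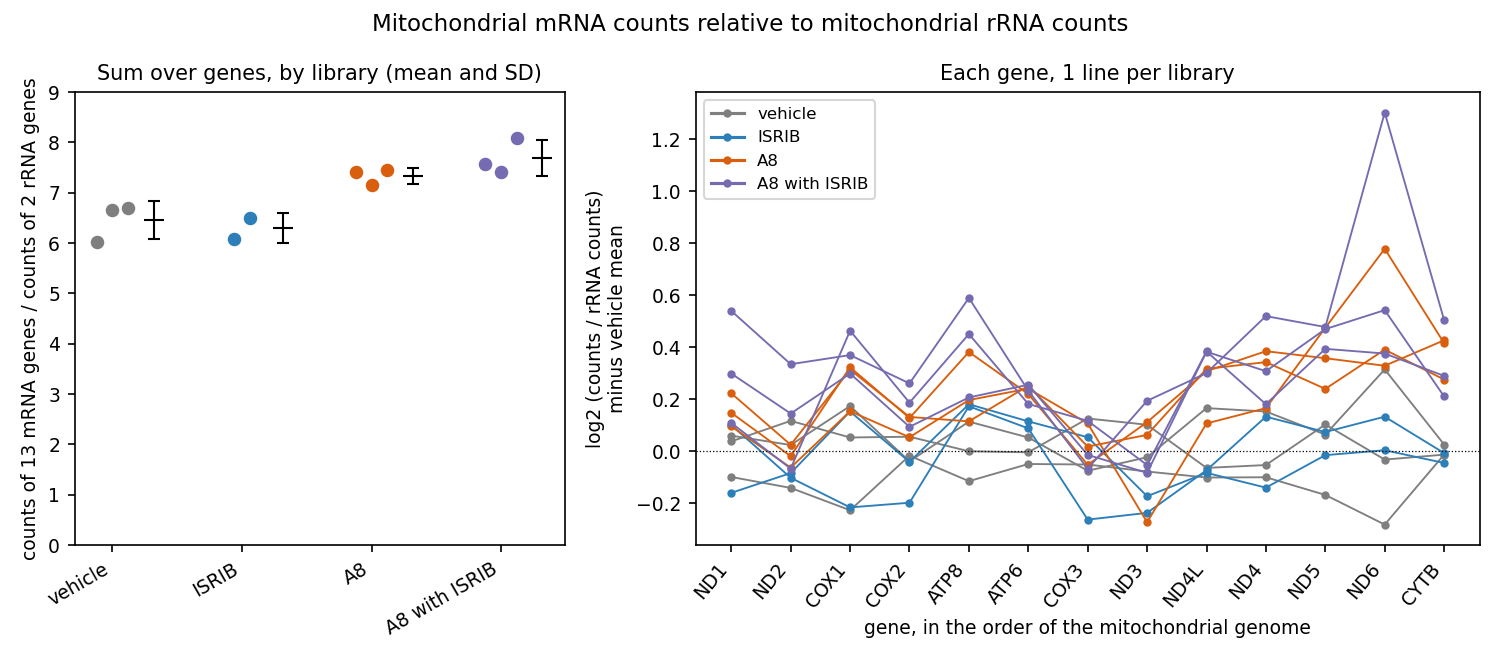
Left, summed counts of the 13 mtDNA mRNA genes over those of RNR1 and RNR2 in each library, with the group mean and SD beside the points; right, the same ratio per gene as log2 minus its vehicle mean, in genome order, with 1 line per library. Libraries with A8 lie at 7.15 to 8.095 and those without at 6.03 to 6.70. The lines separate at ND4, ND5, ND6, CYTB and ATP6, narrowly at ND4 and ND6, and overlap at all the other genes.

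The nuclear members stayed within narrow limits. The 75 genes together took 1.36 ± 0.1% of counts with vehicle, 1.34 ± 0.0486% with A8 and 1.36 ± 0.0533% with both agents (SD, n = 3 each), and 1.36 ± 0.0509% with ISRIB (n = 2). In A8 against vehicle their log2 fold changes ran from -0.15 to 0.22, with medians of 0.01 in complex I, 0.02 in complex II, -0.02 in complex III, 0.04 in complex IV and 0.02 in complex V.

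In complex I, NDUFB5, a membrane-arm subunit, had 35.1, 32.3 and 33.5 CPM with vehicle and 36.9, 35.3 and 40.7 CPM with A8. It was the member of complex I with the largest value, 0.16 (SE 0.07, adjusted p = 0.468 in edgeR), and in A8 with ISRIB against ISRIB alone it had -0.06. NDUFS1, the iron-sulphur subunit that passes electrons on from the flavin, had 0.12 (SE 0.06) with no overlap between groups. NDUFB10 had the lowest value, -0.14 (SE 0.08), and NDUFA11, the most abundant by CPM, -0.10 (SE 0.08). In complex II SDHA had 247.9, 244.2 and 230.5 CPM with vehicle and 241.2, 237.0 and 238.2 CPM with A8. The estimate, -0.01, had a 95% interval of -0.13 to 0.11, and SDHD, a membrane anchor, had 0.06 (SE 0.08).

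In complex III UQCRC2, a core subunit, had 0.11 (SE 0.06) and UQCRC1, the other core subunit, -0.05 (SE 0.07). UQCR11 had 105.9, 89.9 and 77.0 CPM with vehicle, 77.2 and 74.4 CPM with ISRIB, 92.3, 74.1 and 79.3 CPM with A8 and 83.2, 96.2 and 94.5 CPM with both. Its groups crossed, and it had the largest interaction value of any member, 0.42 (SE 0.15, adjusted p = 0.518 in edgeR). Only 2 other nuclear members, NDUFS7 and NDUFB2, had an interaction with an unadjusted p under 0.05, against 8.48% of all genes. In complex IV COX6C had 0.16 (SE 0.11), COX6B1 -0.05 (SE 0.09) and COX6A1 -0.08 (SE 0.09). In complex V ATP5B had 1352, 1391 and 1293 CPM with vehicle and 1378, 1284 and 1316 CPM with A8. The estimate, -0.02, had a 95% interval of -0.14 to 0.10. ATP5L2 had 0.22 (SE 0.17) at only 3.73 to 4.96 CPM in those groups, and as a near copy of ATP5L (-0.08, SE 0.07) it may share reads with it.

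Nuclear members were also high or low together by library, in another order than the mtDNA genes. Above their 11-library mean were 63 of 75 in vehicle 1, 61 in A8 1 and 74 in A8 with ISRIB 3, but 1 in vehicle 3, 6 in A8 2 and 11 in A8 with ISRIB 1. In vehicle 3, where 8 of the 13 mtDNA genes were above their mean, the nuclear median was -0.15 on the log2 scale. Across genes, levels also leaned with GC content by library, from a Spearman correlation of 0.46 in vehicle 1 to -0.39 in ISRIB b, and its part in the nuclear pattern was not tested. Median GC was 44.3% for the mtDNA genes, 48.5% for the nuclear members and 49.6% for all genes.

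The factors that make, process and translate mitochondrial RNA, or assemble the complexes, gave 0 calls in any list in any of the comparisons in edgeR. In A8 against vehicle the median log2 fold change was -0.03 over 28 genes of mtDNA transcription, replication and RNA handling, of which 9 were above 0. POLRMT, the mitochondrial RNA polymerase, had 164.5 ± 7.64 CPM with vehicle and 149.0 ± 6.23 CPM with A8 (SD, n = 3 each), and its edgeR estimate was -0.14 (SE 0.06, adjusted p = 0.439). LRPPRC, which stabilises mitochondrial mRNAs, had 227.5 ± 16.4 and 250.0 ± 7.92 CPM (0.14, SE 0.07), TFB2M, a transcription initiation factor, -0.21 (SE 0.11) and TFAM, which packages mtDNA, 86.8 ± 8.16 and 92.3 ± 6.32 CPM. Of 76 mitochondrial ribosomal protein genes 20 were above 0, with a median of -0.05. At an unadjusted p under 0.05, 0 of them were higher and 8 lower, against 5.34% of all genes on the lower side.

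The remaining lists had medians near 0. They were 0.01 over 15 complex I assembly factors, -0.01 over 29 assembly factors of complexes II to V, and -0.04 over 13 regulators of mitochondrial biogenesis. Of the regulators, NRF1 had 21.5 ± 1.31 CPM with vehicle and 20.9 ± 0.735 with A8 (-0.04, SE 0.08), and PPARGC1A, a coactivator of mitochondrial biogenesis, 1.644 ± 0.51 and 1.601 ± 0.61 CPM (-0.04, SE 0.31). SCO2, a copper chaperone of complex IV, had -0.31 (SE 0.09, adjusted p = 0.249 in edgeR). Among 25 electron carriers, other subunits and tissue isoforms (median 0.04), ATP5S, a coupling factor of ATP synthase outside the rule, had 0.55 (SE 0.11, adjusted p = 0.0584 in edgeR), the lowest p in these lists. CYCS, cytochrome c, had 75.3 ± 3.09 and 69.4 ± 4.08 CPM (SD, n = 3 each) and an estimate of -0.12 (SE 0.07).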

How the data were processed

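Poly(A)-selected, strand-specific libraries of HEK293T cells were sequenced on a DNBSEQ platform, per the labels' protocols. The authors deposited whole-number counts per gene symbol. Per the submitters' processing notes the genome build was GRCh37 and DESeq and DESeq2 were used. How reads were aligned and counted, and whether strand was used, is not given in the sources used here. The authors also deposited 3 DESeq2 tables with log2 fold changes, adjusted p-values, a test statistic (a score) and a signal of mean normalized counts, per the file headers. Reads shared with nuclear copies of mtDNA or with pseudogenes cannot be told apart.

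One edgeR 4.0.16 quasi-likelihood fit (R 4.3.3) of group means held all 11 libraries, after filterByExpr (15591 genes, all 88 members) and TMM scaling. P-values were Benjamini-Hochberg adjusted over all genes tested and called under 0.05. Compared were A8, ISRIB and both together with vehicle, both together with each agent alone, and the interaction. DESeq2 was 1.42.0. On simulated counts of the 15591 genes, A8 against vehicle recovered 62 of 100 genes changed by a log2 fold change of 0.5 and 85 of 100 changed by 1. These were spreads typical of all genes, and 10 unchanged genes were called. Each gene was drawn independently, and the mtDNA genes had a larger spread (median 0.277 against 0.141) and moved together. The rates therefore do not hold for the mtDNA genes. Replicates differed by more than sampling noise (chi-square per degree of freedom 7.55 to 38.3). By correlation, same-numbered libraries had little deviation in common: 1 of 9 pair correlations was above 0.1. For the mtDNA genes, however, replicate 3 was the highest of its group in 13 of 13 with vehicle and with A8 and ISRIB. In A8 it was the highest for all but ND1, ND6 and COX3. A replicate block was fitted only in the 9 numbered libraries, without those of ISRIB alone. Its median SE in A8 against vehicle was 0.095 for mtDNA genes, where the fit of all 11 libraries had 0.158. For nuclear members it was 0.094 in place of 0.085. No fit of the 9 libraries without the block was made, so the block's own part in these differences was not tested.

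Members, pathway lists and tests were chosen with earlier results of these data known. The text names all mtDNA genes, per complex the nuclear member highest in CPM and those with the largest and smallest value in A8 against vehicle, any called member, and a fixed set of 7 genes from the lists; NDUFS1, NDUFS7, NDUFB2, ATP5J2, SCO2 and ATP5S were named after their values were seen. Transcript sequences and lengths are from GENCODE version 29 and promoters from RefSeq, both of another build than the counts.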

Additional observations from a re-analysis of the deposited data

How the results depend on the processing

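No member was called in any comparison with DESeq2 size factors, the DESeq2 Wald test, a minimum of 50 counts, scaling without mtDNA-encoded genes or fits of only the groups compared. Without a filter on low counts edgeR called 8 members in A8 against vehicle, 9 in A8 with ISRIB against vehicle, 1 in A8 with ISRIB against ISRIB alone and 10 in the average A8 effect, all of them mtDNA genes. The prior degrees of freedom, 82.4 in place of 9.7, moved with this. With the replicate number as a replicate block in the 9 numbered libraries, 1 member, ND5, was called in A8 against vehicle (0.51, adjusted p = 0.039 in edgeR), where all genes gave 11 higher and 4 lower calls in place of 13 and 9. The labels do not say that the numbers pair the libraries, and these 9 libraries were not fitted without the block. The block gave 0 member calls in the other comparisons it could be fitted for. Leaving out each library in turn gave 0 member calls in the 6 comparisons and 0 to 1 in the average A8 effect.

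The difference between the genomes' median log2 fold changes kept its sign in A8 against vehicle (0.247 to 0.582 with each library left out), A8 with ISRIB against vehicle (0.243 to 0.622) and the average A8 effect (0.162 to 0.404). It changed sign in ISRIB alone against vehicle (-0.173 to 0.373), A8 with ISRIB against ISRIB alone (-0.016 to 0.444), A8 with ISRIB against A8 (-0.105 to 0.116) and the interaction (-0.246 to 0.188). With the trend with GC content removed, an alternative added after the data had been seen, it was 0.34 in A8 against vehicle, 0.408 in A8 with ISRIB against vehicle and 0.302 in A8 with ISRIB against ISRIB alone, and it turned from -0.004 to 0.032 in the interaction. As a share of the members' own counts the mtDNA genes took 85.8% with vehicle, 86.8% with ISRIB, 88.5% with A8 and 88.5% with both. With each library left out, the shares of all counts were 7.68 to 8.86%, 8.08 to 10.0%, 10.0 to 10.9% and 9.57 to 11.2%. The log2 difference in mRNA over rRNA counts was 0.184 in A8 against vehicle (0.134 to 0.21 with each library left out) with 0.304 over RNR1 alone and 0.157 over RNR2 alone. In A8 with ISRIB against ISRIB alone it was 0.289 (0.241 to 0.337).

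Over all genes, calls in A8 against vehicle numbered 22, and 117 with the DESeq2 Wald test and 104 without the filter. Depth was even (34072107 to 35318111 counts per library), and the spread between replicates had a median of 0.277 over the mtDNA genes against 0.141 over all genes.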
